A study of Mus musculus with 12 samples.

Results

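The circular RNAs (circRNAs) examined here come from mouse genes that the count tables list under a provisional name. Such a name is either Gm followed by digits, which the mouse nomenclature gives to predicted gene models, or a RIKEN full-length cDNA clone name that ends in Rik. A circRNA was a member when its host field held a single gene whose name had that form, so the rule used no measured value. The rule was set with earlier results of these data known. Of 13474 circRNAs in all, 146 were members, and 137 of these had at least 1 read. They come from 68 hosts, of which 12 carry a Gm name (19 circRNAs) and 56 a Rik name (127 circRNAs). Circular RNA was sequenced in 4 mouse cell lines with 3 libraries each: 4T1, labelled a breast cancer line, Eph4-ev, a line of breast epithelial cells, B16F10, a melanoma line, and Melan-a, a line of melanocytes. The labels name no treatment, no genetic change and no culture of origin, so the p-values measure only the spread between these libraries, which may be technical. The table of the mammary lines (4T1 and Eph4-ev) lists 93 members among 9492 circRNAs, and that of the melanocyte lines (B16F10 and Melan-a) lists 141 among 12910, of which 97 had reads. Reads from both lineages were found for 53 members, from the mammary lines alone for 40 and from the melanocyte lines alone for 44, and 9 had no read. In these counts, and wherever lines of both lineages are counted below, a circRNA that a table does not list is taken as without reads there, although an unlisted circRNA is not a measured count of 0. Both tables list 88 of the members.

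A circRNA forms when the end of an exon is spliced backwards to the start of the same or an earlier exon, so that the RNA has no free ends. Such rings resist exonucleases that digest linear RNA, and they are counted through reads that cross the back-spliced junction. Genes that code for protein give rise to most known circRNAs, although long noncoding RNAs (lncRNAs) with several exons can do so as well. The series title places these libraries in a search for tumour-specific circRNAs that encode cryptic peptides.

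The libraries held 15572 to 56649 junction reads. The shallowest mammary libraries were 4T1 replicates 1 and 2 (15572 and 17735 reads), beside 44625 in 4T1 replicate 3 and 50648 to 56649 in Eph4-ev. Every pair of replicate libraries differed by more than sampling noise (chi-square test of the counts). Of 15 genes used as melanocyte markers, 10 gave circRNA reads in B16F10 and 11 in Melan-a, including Tyr, Tyrp1, Dct and Pmel. In 4T1 there were 0 and in Eph4-ev 1 (Mitf, 5 reads). Of 16 epithelial markers, 6 gave reads in each mammary line, among them Cdh1 and Epcam, at a summed level of 1349 to 2650 RPM (reads scaled to a common library total) in 4T1 and 4265 to 4609 RPM in Eph4-ev. In B16F10 1 and in Melan-a 2 epithelial markers gave reads, at up to 118 and 79.8 RPM, and none of the 9 immune markers gave a read in any line. Of 11 fibroblast and mesenchymal markers 0 had reads in 4T1, 2 in Eph4-ev, 1 in B16F10 and 2 in Melan-a.

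Most member hosts were protein coding in current annotation, and 23 of the 68 have since been given another symbol. RefSeq on GRCm38, the assembly also called mm10, matched 67 of the 68 hosts, and 56 hosts were classed as protein coding. The protein-coding hosts gave 130 of the 146 circRNAs and 87.2% of the members' reads in the mammary lines and 87.6% in the melanocyte lines. The 23 hosts with another symbol in RefSeq gave 69 circRNAs. Among these are 2010111I01Rik, now Aopep, an aminopeptidase, and 9130011E15Rik, now Armh3, an armadillo-like helical domain protein. Gm15800 is now Hectd4, a HECT-domain ubiquitin ligase, and 2810403A07Rik is now Khdc4, a KH-domain RNA-binding protein. D930015E06Rik is now the membrane protein gene Tmem131l, and Gm17296 is now Tarbp1, a tRNA methyltransferase. 1110037F02Rik is now Virma, a subunit of the m6A methyltransferase complex. Renamed hosts gave 45.7% of the members' reads in the mammary lines and 39.4% in the melanocyte lines. The sources conflict for D930016D06Rik, which GENCODE M21 lists as a lincRNA and RefSeq as the protein-coding gene Thoc2l. The remaining 12 hosts were lncRNA genes: 2210408F21Rik, 2610307P16Rik, A330023F24Rik, E230016M11Rik, Gm13986, Gm29904, Gm30188, Gm32262, Gm34911, Gm36876, Gm38580 and Gm7854. They gave 16 circRNAs, 12.8% of the members' reads in the mammary lines and 12.4% in the melanocyte lines. The label of an uncharacterised gene therefore holds for a part of the members only, and they are called Gm and Rik circRNAs below.

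The junctions that carry the results are shown next, because the sequence across the join distinguishes a ring from its linear host RNA. Each was read from the GENCODE M21 transcript whose exon ends match the deposited coordinates, in the sense of the transcript. The lower-case letters are the last 15 bases of the ring's final exon, and the capitals are the first 15 bases of its opening exon, to which they are joined. The first 3 are from lncRNA genes, the next is the circRNA of the host whose annotation conflicts, and the last 4 are abundant circRNAs of protein-coding hosts.
2610307P16Rik, exons 4 to 5: gacatctgcagagagGGTTGATGGCCTAAC
2610307P16Rik, exons 4 to 6: tgttagcagccgaagGGTTGATGGCCTAAC
Gm29904, exons 3 to 5: cctcagagctcccagATGGAGCTGAGAAGG
D930016D06Rik, exons 2 to 3: tcagggagagtgcagCTCTTCAGATTCATG
2010111I01Rik, exons 3 to 4: tctgggaatggccagGATACATGAGCTGGC
2900026A02Rik, exons 2 to 6: aacagtcccctcgtgCCCTGCAGAGACAGC
E130308A19Rik, exon 2 alone: cgcagtgcattccagGAGAGACACTGCTGA
D930015E06Rik, exons 5 to 7: ctttcacagacacagGTTCCTGGGACATCC

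The first comparison was between the breast cancer line 4T1 and the breast epithelial line Eph4-ev. Of the 93 Gm and Rik circRNAs with reads, 10 had enough to be tested. In 4T1 1 of these 10 fell and 0 rose (edgeR quasi-likelihood test, Benjamini-Hochberg adjusted p under 0.05 over all 1869 circRNAs tested), and 2 had an unadjusted p under 0.05. Among all 1869 circRNAs tested 17.4% were called, 5.99% higher and 11.4% lower, and 1 of 10 tested members gives no result about the class. The median log2 fold of the 10 was -0.02, beside -0.22 for all 1869. Scaling by total reads alone instead of TMM factors put the median of all circRNAs at -0.01, so the folds are to be read against these medians.

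The circRNA that fell belongs to the lncRNA gene 2610307P16Rik, on chromosome 13, whose next protein-coding neighbour at higher coordinates is Sox4, a transcription factor gene 63.5 kb away. It spans chr13:28668370-28669994 on the minus strand and joins exons 4 and 5, a ring of 548 exonic bases. The 3 libraries of 4T1 held 1, 3 and 6 reads and those of Eph4-ev held 25, 32 and 25. As RPM these are 64.2, 169 and 134 in 4T1 and 494, 565 and 450 in Eph4-ev. All 3 Eph4-ev libraries lay above all 3 of 4T1, and fewer cells with the ring cannot be told apart from less of it per cell in such bulk RNA. The means were 123 ± 53.5 RPM (SD, n = 3) in 4T1 and 503 ± 58.0 RPM (SD, n = 3) in Eph4-ev. The log2 fold of 4T1 over Eph4-ev was -2.18 (SE 0.61, adjusted p = 0.0325 by edgeR). The summed level of the epithelial markers was also lower in 4T1, as given above, but single markers differed. Inadl had 23 reads in 4T1 and 253 in Eph4-ev, Myo5b 25 and 231, and Esrp1 30 and 130. Grhl2 had 51 and 87, Epcam 27 and 28 and Cdh1 2 and 2, although the 4T1 libraries held fewer junction reads. The part of these markers in the difference of the ring was not tested. The direction held without any single library, with log2 folds from -2.43 to -2.02. The call did not: without 4T1 replicate 1, 2 or 3 the edgeR adjusted p was 0.0630, 0.0516 and 0.0553, and without Eph4-ev replicate 1, 2 or 3 it was 0.0964, 0.144 and 0.0939.

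Of the other listed rings of 2610307P16Rik, a pair had reads in Eph4-ev alone. The ring of exons 4 to 6 (chr13:28608518-28669994), which opens with the same exon as the one above, had 9, 9 and 1 reads in Eph4-ev and 0 in the 9 other libraries. The circRNA at chr13:28505706-28561579 had 3, 2 and 2 reads in Eph4-ev and none elsewhere. A further one, chr13:28505706-28608628, had 2, 0 and 0 reads in 4T1, 0, 1 and 4 in Eph4-ev and 4 in Melan-a replicate 3. With all rings of the host summed, 2610307P16Rik had 3, 3 and 6 reads in 4T1, against 37, 44 and 32 in Eph4-ev. The host sum was lower in 4T1, with a log2 fold of -2.24 (SE 0.56, adjusted p = 0.0126 by edgeR over 1515 hosts), and the call was lost without Eph4-ev replicate 1 (0.0577) or replicate 2 (0.0917). In the melanocyte lines the host had 0 reads in all 3 B16F10 libraries and 0, 3 and 7 in Melan-a.

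Host sums called a second gene. Of the 11 member hosts tested 2 were called, beside 17.5% of all 1515 hosts (6.86% higher and 10.6% lower). D930016D06Rik, now Thoc2l, a gene named for its likeness to a subunit of the mRNA export complex THO, has a single circRNA, chr5:104538826-104541262 on the plus strand, which joins exons 2 and 3 into a ring of 245 bases. The libraries of 4T1 held 14, 10 and 7 reads, or 899, 564 and 157 RPM. Those of Eph4-ev held 4, 5 and 0 reads, or 79.0, 88.3 and 0 RPM. Each 4T1 library lay above each Eph4-ev library, and the 4T1 libraries differed widely among themselves (540 ± 372 RPM, SD, n = 3, against 55.7 ± 48.5). The host fit gave a log2 fold of 2.98 (SE 0.98, adjusted p = 0.0464 by edgeR). The fit of single circRNAs put the same reads at 2.88 (SE 0.99, adjusted p = 0.0705 by edgeR), while DESeq2 gave an adjusted p of 0.0317, in a range of 0.0317 to 0.232 over the alternatives. The host call was lost without 4T1 replicate 1 (0.187) or 2 (0.0955) and without Eph4-ev replicate 1 (0.0886), 2 (0.161) or 3 (0.141). B16F10 held 1 read of this ring over its 3 libraries, and so did Melan-a.

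The most abundant Gm and Rik circRNA of the mammary lines was exon 2 of 8030462N17Rik, a protein-coding gene (chr18:77673900-77674684, minus strand, 785 bases, with the start codon). It had 7, 10 and 48 reads in 4T1, against 8, 20 and 17 in Eph4-ev. At 450, 564 and 1076 RPM every 4T1 library lay above the Eph4-ev libraries at 158, 353 and 306 RPM, but the difference did not pass the test (log2 fold 1.20, SE 0.55, adjusted p = 0.171 by edgeR). Without 4T1 replicate 3 the fold was 0.50. The second, exons 2 to 6 of the protein-coding gene 2900026A02Rik (chr5:113175205-113193907, minus strand), is a ring of 4630 bases that holds the start codon. Its 7, 2 and 20 reads in 4T1, against 9, 26 and 23 in Eph4-ev overlap as RPM (113 to 450 and 178 to 459), and its log2 fold was -0.23 (SE 0.66, adjusted p = 0.858 by edgeR). E130308A19Rik exon 2 (chr4:59690144-59691338, plus strand, 1195 bases, start codon included) had 4, 0 and 19 reads in 4T1, against 8, 8 and 15 in Eph4-ev, with a log2 fold of 0.19 (SE 0.90, adjusted p = 0.917 by edgeR). The sign of that fold turned in 5 of the alternatives, so no direction can be given. D930015E06Rik (Tmem131l) exons 5 to 7 (chr3:83960687-83962421, minus strand, 352 bases) had 1, 2 and 12 reads in 4T1, against 10, 20 and 3 in Eph4-ev, which overlap.

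**Figure D1:**
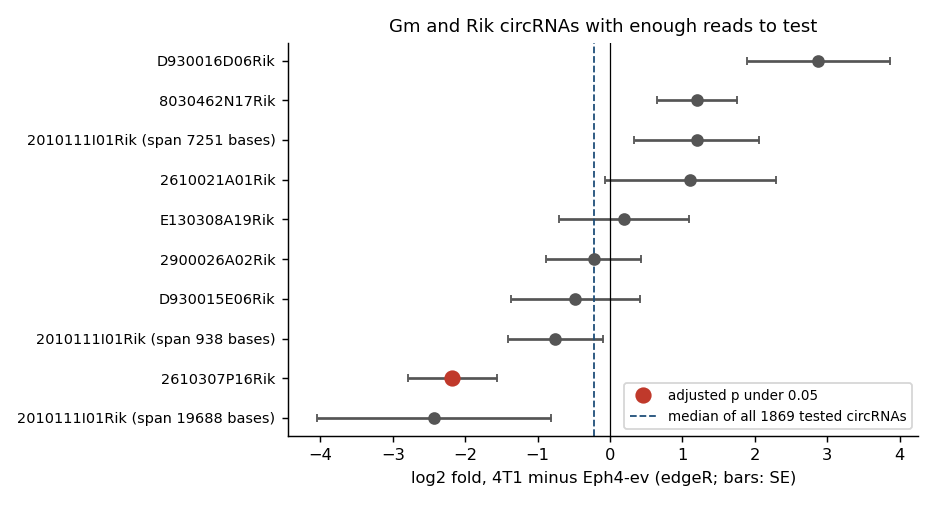
Log2 fold of 4T1 over Eph4-ev (horizontal axis) for the 10 Gm and Rik circRNAs with enough reads to be tested in the mammary lines, by edgeR, with bars of 1 SE; the dashed line is the median of all 1869 circRNAs tested, -0.22. The circRNA of 2610307P16Rik, in red at -2.18, is the only point called, and the folds of the others lie on both sides of 0.

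Aopep, listed as 2010111I01Rik, held the largest number of member circRNAs, 11 in both tables together. A pair of its rings was among the most abundant members of both lineages. Exons 3 to 4 (chr13:63061035-63068285, plus strand, 406 bases) had 0, 11 and 36 reads in 4T1, against 11, 6 and 14 in Eph4-ev. The same ring had 8, 2 and 4 reads in B16F10, against 7, 1 and 8 in Melan-a, so that 11 of 12 libraries detected it. Its log2 folds were 1.20 in the mammary lines (SE 0.86, adjusted p = 0.398 by edgeR) and 0.28 in the melanocyte lines (SE 0.91, adjusted p = 0.907 by edgeR), and neither passed the test. The junction chr13:63015026-63015963, whose ends meet annotated exon ends that no single GENCODE transcript combines, had 6, 6 and 6 reads in 4T1, against 32, 16 and 13 in Eph4-ev. Scaled to RPM (385, 338 and 134 against 632, 282 and 234) the lines overlap, and the log2 fold was -0.75 (SE 0.66, adjusted p = 0.508 by edgeR). A longer ring, exons 7 to 10 (chr13:63190479-63210166), had 2, 0 and 0 reads in 4T1, against 14, 11 and 0 in Eph4-ev, and its log2 fold of -2.43 had an SE of 1.62 (adjusted p = 0.357 by edgeR). Summed over its rings Aopep had 11, 21 and 46 reads in 4T1, against 59, 46 and 29 in Eph4-ev, with a host log2 fold of 0.10 (SE 0.40, adjusted p = 0.891 by edgeR), the smallest SE of the 11 hosts. In the melanocyte lines its sums of 9, 19 and 8 reads in B16F10, against 11, 7 and 19 in Melan-a gave 0.47 (SE 0.56, adjusted p = 0.718 by edgeR).

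In 1 of the 5 hosts with most circRNAs a single splice site served nearly all rings. D630045J12Rik, a protein-coding gene on chromosome 6, has 7 listed circRNAs, and 6 of them open with exon 3, whose outer edge lies at position 38191764. Its rings had 14, 5 and 2 reads in Eph4-ev, 0 in all 3 libraries of 4T1, 9, 2 and 3 in B16F10 and 0, 11 and 2 in Melan-a. By ring, exons 3 to 10 had 8, 3 and 2 reads in Eph4-ev, 3, 0 and 2 in B16F10 and 0 in each Melan-a library. Exons 3 to 9 had 3, 2 and 0 reads in Eph4-ev, 2, 2 and 0 in B16F10 and 0 in each Melan-a library. Exons 3 to 15, which the mammary table does not list, had 9 reads, all in Melan-a (0, 7 and 2). These counts are too small to say whether the lines differ in the rings of this host, which was not tested. Armh3 (9130011E15Rik) has 10 circRNAs, and its most used site occurs in 3 of them. Its host sums were 3, 7 and 0 reads in 4T1, 9, 21 and 7 in Eph4-ev, 5, 4 and 7 in B16F10 and 2, 10 and 1 in Melan-a. Neither lineage passed the test (log2 fold -0.54, SE 1.03, adjusted p = 0.779 by edgeR, and 0.90, SE 0.86, adjusted p = 0.616 by edgeR). Hectd4 (Gm15800) has 7 circRNAs with 26 reads in the mammary and 9 in the melanocyte lines. Garre1 (4931406P16Rik), a Rac effector gene, has 6, with 9 and 18 reads, too few to test.

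Counted together, Gm and Rik circRNAs took shares of junction reads that overlapped between the mammary lines. The share of reads was 0.520, 0.502 and 0.506% in the 3 libraries of 4T1 and 0.509, 0.558 and 0.410% in those of Eph4-ev. The difference of 0.0169 percentage points had an exact two-sided permutation p = 0.9. In the melanocyte lines the share was 0.475, 0.407 and 0.419% in B16F10 and 0.431, 0.274 and 0.262% in Melan-a, a difference of 0.111 percentage points (exact permutation p = 0.3). With 3 libraries against 3 this test cannot go below 0.1. Rik hosts alone took 0.450, 0.390 and 0.371% in B16F10 and 0.359, 0.232 and 0.242% in Melan-a, with no overlap (exact permutation p = 0.1). As a share of the circRNAs detected in a library, members made up 0.852, 0.862 and 0.736% in 4T1 and 0.931, 0.999 and 0.907% in Eph4-ev, again with no overlap (exact permutation p = 0.1). That share was 0.954 ± 0.103% (SD, n = 3) in B16F10 and 0.829 ± 0.247% in Melan-a, which overlap (exact permutation p = 0.5).

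The mammary lines did not overlap when the noncoding hosts were taken alone, with D930016D06Rik counted as protein coding. CircRNAs of lncRNA hosts had 3, 3 and 10 reads in 4T1, against 46, 56 and 35 in Eph4-ev. As shares of the library these are 0.0193, 0.0169 and 0.0224% in 4T1 (mean 0.0195 ± 0.0028, SD, n = 3) against 0.0908, 0.0989 and 0.0630% in Eph4-ev (0.0842 ± 0.0188). Every Eph4-ev library lay above every 4T1 library, at the smallest p the design allows (exact permutation p = 0.1). Most of that difference is the host 2610307P16Rik: without it the reads were 0, 0 and 4 in 4T1 and 9, 12 and 3 in Eph4-ev, and the shares overlapped (exact permutation p = 0.2). The share of protein-coding Gm and Rik hosts was 0.490 ± 0.0095% (SD, n = 3) in 4T1 and 0.408 ± 0.0565% in Eph4-ev, also with no overlap and an exact permutation p = 0.1. Both separations depend on the class given to D930016D06Rik, which GENCODE M21 lists as a lincRNA. It had 14, 10 and 7 reads in 4T1, against 4, 5 and 0 in Eph4-ev. With this host counted as noncoding, the mammary lines overlap in both shares. In the melanocyte lines the noncoding share was 0.0550, 0.0118 and 0.0599% in B16F10 and 0.0519, 0.0417 and 0.0477% in Melan-a, and the lines overlapped (exact permutation p = 1).

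**Figure D2:**
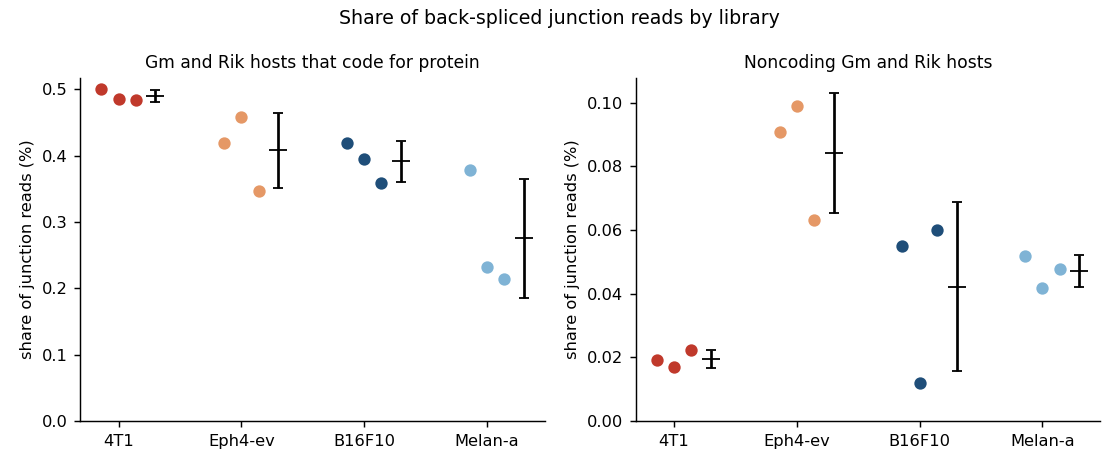
Share of each library's junction reads, in percent, from Gm and Rik hosts that code for protein (left) and from noncoding ones (right), with 1 point per library, the mean of 3 as a short line and the SD as a bar; the vertical axes differ in scale. Noncoding shares lie at 0.0169 to 0.0224% in 4T1 and at 0.0630 to 0.0989% in Eph4-ev, and the melanocyte lines overlap. D930016D06Rik, whose annotation conflicts, is counted as protein coding, and the separation of the mammary lines in both panels depends on that.

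The second comparison was between the melanoma line B16F10 and the melanocyte line Melan-a. Only 1 of the 97 Gm and Rik circRNAs with reads there had enough to be tested, the Aopep ring of exons 3 to 4, and it was not called (0 called and 0 at an unadjusted p under 0.05 by edgeR, and 0 by DESeq2). Of all 874 circRNAs tested 10.9% were called, 5.03% higher and 5.84% lower. At the level of hosts 2 members were tested, Aopep and Armh3, and 0 were called, beside 7.13% of 898 hosts (2.78% higher and 4.34% lower). Only 12 members had 10 reads or more over the 6 libraries.

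The lncRNA gene Gm29904 gave the most abundant noncoding circRNA of these lines. It lies on chromosome 15, and the next protein-coding gene at higher coordinates is the oncogene Myc, 654 kb away. The ring joins exons 3 to 5 (chr15:61293034-61322617, plus strand, 464 bases). It had 2, 1 and 2 reads in B16F10, against 10, 7 and 5 in Melan-a, or 99.9, 59.0 and 120 RPM against 399, 209 and 199 RPM. Each Melan-a library lay above each B16F10 library, with means of 269 ± 113 (SD, n = 3) and 92.9 ± 31 RPM. The reads were too few for the filter of the test, and with no filter the log2 fold of -1.51 had an SE of 1.12 (adjusted p = 0.550 by edgeR). The mammary table does not list this circRNA, so no level is given for those lines.

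Other members of the melanocyte lines had levels that varied as much within a line as between lines. E130308A19Rik exon 2 had 9, 2 and 3 reads in B16F10, against 3, 1 and 5 in Melan-a. Exons 15 to 19 of 2210408I21Rik (chr13:77316348-77334363, plus strand, 1039 bases) had 8, 6 and 1 reads in B16F10, against 1, 3 and 0 in Melan-a, and the mammary table does not list it. Exons 2 to 3 of 1700109H08Rik (chr5:3575623-3577344, 261 bases) had 0, 2 and 3 reads in B16F10, 3, 10 and 0 in Melan-a, 0, 1 and 0 in 4T1 and 8, 4 and 7 in Eph4-ev. The Aopep junction chr13:63015026-63015963 had 0, 8 and 1 reads in B16F10, against 2, 2 and 6 in Melan-a. 8030462N17Rik, so abundant in the mammary lines, had 1, 3 and 0 reads in B16F10, against 9, 0 and 0 in Melan-a. Exon 3 of 9930021J03Rik (chr19:29753600-29755017, minus strand, 1418 bases) had 7, 1 and 0 reads in B16F10, against 2, 3 and 0 in Melan-a. In each of these the 2 lines overlap once scaled to RPM.

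**Figure D3:**
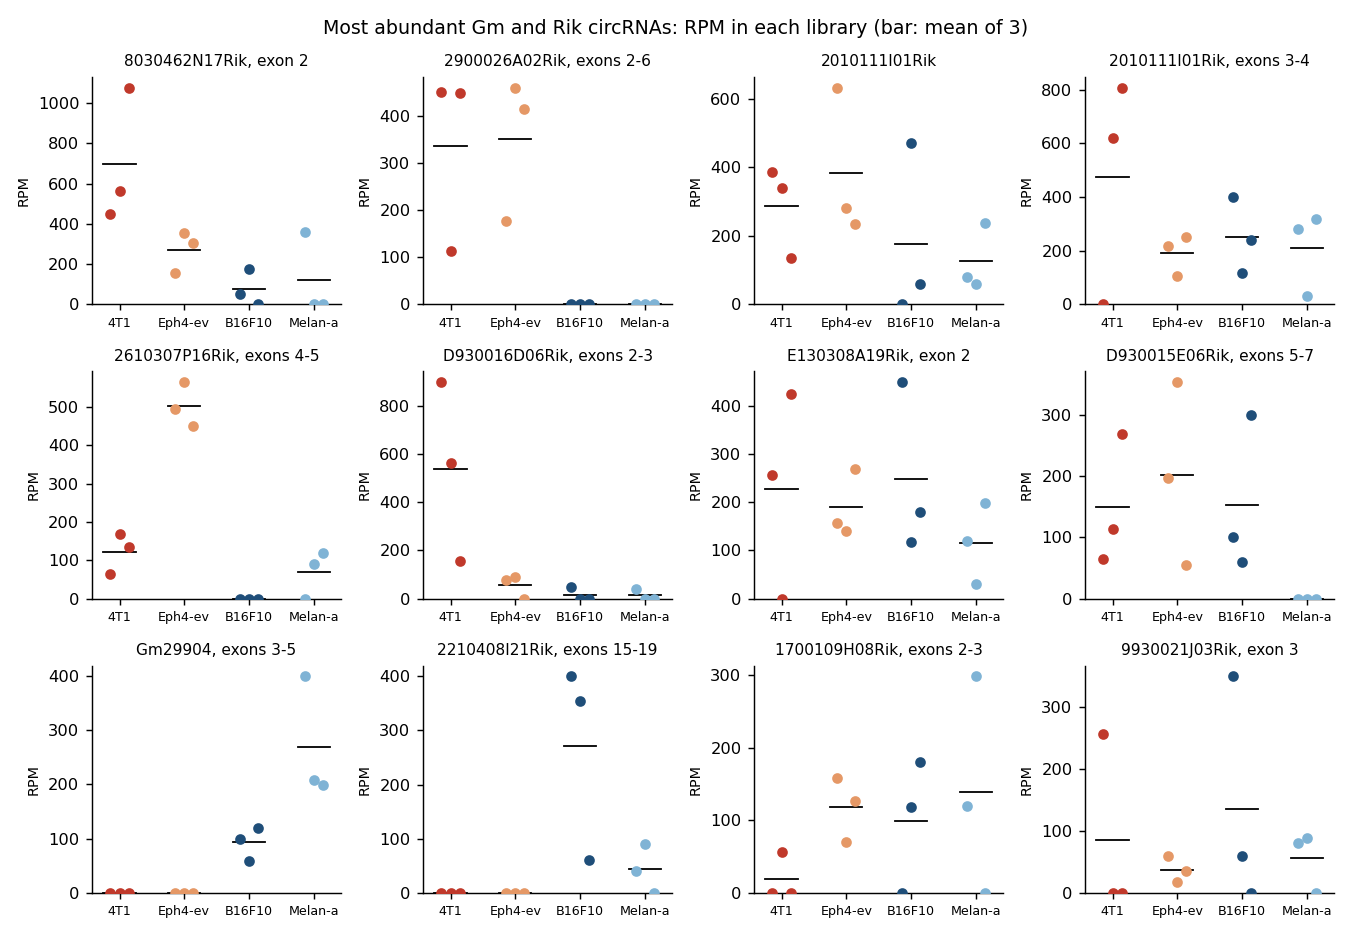
RPM in each library for the 12 Gm and Rik circRNAs among the 8 most abundant of either table, with 1 point per library and the mean of 3 as a line; the vertical axes differ in scale and start at 0, and the rings of Gm29904 and 2210408I21Rik, which the mammary table does not list, are drawn at 0 there. The circRNA of 2610307P16Rik is highest in Eph4-ev (450 to 565 RPM), that of Gm29904 in Melan-a (199 to 399 RPM) and that of D930016D06Rik in 4T1 (157 to 899 RPM), and that of 2900026A02Rik has no read in the melanocyte lines.

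Whether a difference in the mammary lines differed from that in the melanocyte lines was tested by the interaction of lineage and line. Of the members 7 passed the filter, 6 of them with a usable estimate, and 0 were called and 1 had an unadjusted p under 0.05, beside 11.5% called of 1403 circRNAs (3.78% higher and 7.77% lower). For 2610307P16Rik the difference of the log2 folds was 2.01 (SE 1.79, adjusted p = 0.523 by edgeR). The member with the smallest p was Tmem131l (D930015E06Rik), whose ring had 2, 1 and 5 reads in B16F10 and 0 in all 3 Melan-a libraries while it overlapped in the mammary lines (adjusted p = 0.0738 by edgeR). For the ring of 2900026A02Rik no interaction could be estimated, since the host had 0 reads in all 6 melanocyte libraries although that table lists 5 of its circRNAs. In the mammary lines the same host had 8, 4 and 24 reads in 4T1, against 17, 40 and 23 in Eph4-ev, 116 in all. This is at least 22.1-fold higher than the 3 reads that a count of 0 allows over the 6 melanocyte libraries. The mammary and melanocyte tables were deposited separately, so a level set across them rests on RPM alone.

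The levels of Gm and Rik circRNAs were set beside those of other single hosts. A ring is counted by its junction alone, so these levels are not divided by length. The highest level of a member in any library was 1076 RPM, and that of another single host was 34066 RPM, in groups of very different size. The median over circRNAs of the mean RPM was 26.9 for members and 30.2 for the 9239 others in the mammary table, and 23.1 and 29.8 (8620 others) in the melanocyte table. The median read total was 7 for both groups in the mammary table and 3 against 4 in the melanocyte table. Within a library, the median RPM of detected circRNAs was the same for both groups in 4T1 replicate 1, Eph4-ev replicate 2 and B16F10 replicates 1 and 3, and lower for members in the other 8 libraries. Of members 35.5% had at least 10 reads over the 6 mammary libraries, beside 41.2% of the others, and 12.4% beside 26.7% in the melanocyte lines. Reads in all 6 libraries were found for 6 members (6.45%) and 9.87% of the others in the mammary lines, and for 3 (3.09%) and 10.3% in the melanocyte lines. Enough reads for the test were held by 10.8% of members and 19.8% of the others, and by 1.03% and 9.95%. These shares are descriptions and were not tested, as circRNAs of the same libraries and hosts are not replicates.

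**Figure D4:**
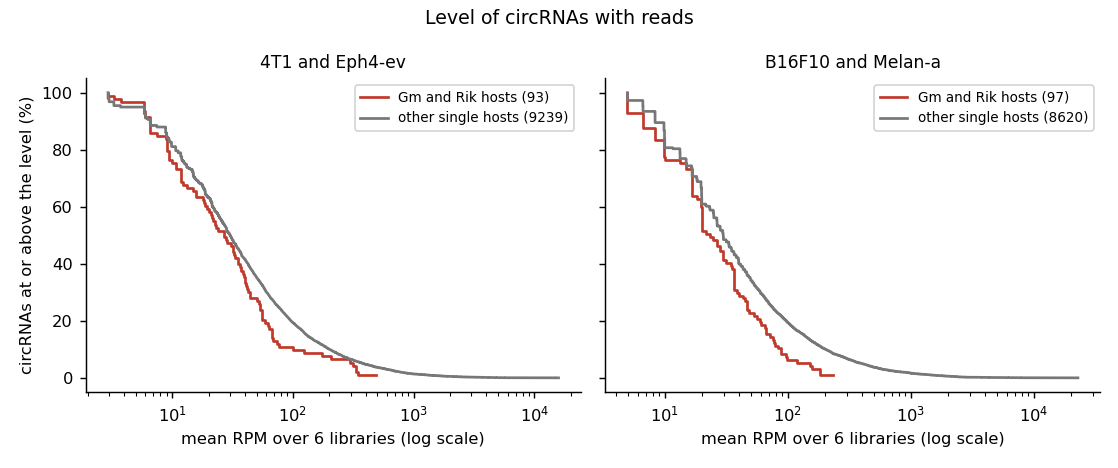
Percent of circRNAs with reads (vertical axis) whose mean RPM over the 6 libraries of a table reaches the level on the horizontal log axis, for Gm and Rik hosts (red) and other single hosts (grey). The red line ends below 500 RPM in both panels, whereas the grey line goes on to far higher levels.

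The number of lines with reads was also counted, with no test. Of the 137 with reads 64 (46.7%) had them in a single line, 36 (26.3%) in 2, 21 (15.3%) in 3 and 16 (11.7%) in all 4. For the 12484 other single-host circRNAs the shares were 40.4, 25.9, 15.6 and 18%. None of the members had a read in all 12 libraries, whereas 463 (3.71%) of the others did. The members nearest to it, with reads in 11 libraries, were the Aopep rings chr13:63061035-63068285 and chr13:63015026-63015963 and E130308A19Rik exon 2. Both lines of a lineage detected 36.6% of members and 47.4% of the others in the mammary table, and 40.2% and 47.9% in the melanocyte table. Among circRNAs with at least 10 reads the figures were 69.7% (of 33 members) and 81.0% in the mammary table, but 100% (of 12 members) and 94.0% in the melanocyte table. The median read total of members was lower in the melanocyte table (3 against 4) but the same in the mammary table (7). Totals of at least 10 reads were rarer among members in both tables (35.5 against 41.2% and 12.4 against 26.7%). The part of read totals in the shares of lines was not tested further.

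**Figure D5:**
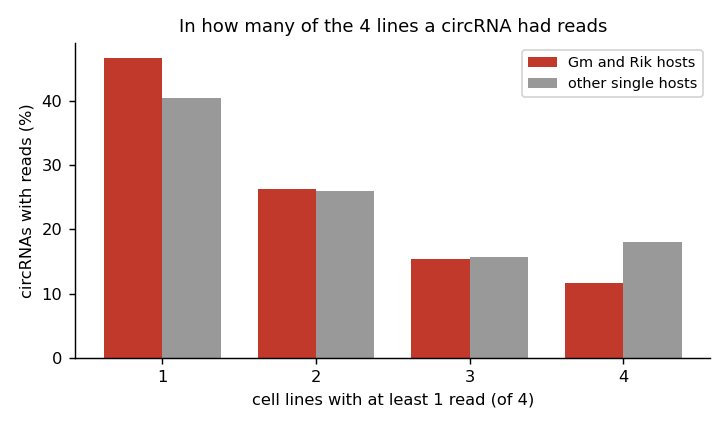
Percent of circRNAs with reads (vertical axis) by the number of the 4 cell lines in which at least 1 read was found (horizontal axis; unlisted counted as no read), for the 137 Gm and Rik circRNAs (red) and 12484 of other single hosts (grey). Members stand higher at 1 line (46.7 against 40.4%) and lower at 4 lines (11.7 against 18%).

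No Gm or Rik circRNA was found only in a tumour line by the rule used here, which asks for at least 2 reads in each of the 3 libraries of a line and 0 in each library of the other line of that lineage. The counts were 0 for 4T1, 0 for B16F10 and 0 for Melan-a, beside 51 (0.552%), 32 (0.371%) and 44 (0.510%) circRNAs of other single hosts. Shares of this size would give less than 1 circRNA among 93 or 97 members, so the zeros lie near the background and are no result about the members. In Eph4-ev 4 members met it, 4.30% of the 93 with reads, beside 323 (3.50%) of the others. The 4 are 33.3% of the 12 members with 2 reads in each Eph4-ev library, beside 16.2% for the others. They were D430042O09Rik exons 4 to 6 (chr7:125760301-125770703) with 2, 7 and 5 reads, and D630045J12Rik exons 3 to 10 (chr6:38168091-38191764) with 8, 3 and 2. The others were Khdc4 (2810403A07Rik) exons 9 to 10 (chr3:88699951-88700514) with 3, 5 and 2 reads and 2610307P16Rik chr13:28505706-28561579 with 3, 2 and 2. Against the 3 reads that 0 allows over the 3 libraries of 4T1, these levels were at least 2.23-, 2.07-, 1.60- and 1.12-fold higher. The Eph4-ev libraries were the deeper ones, and after thinning all 6 to the smallest total 0.1 of the members met the rule on average over 20 draws. The share of the others after thinning is not given here, so this fall is no result about the members. The first pair had reads in the melanocyte lines, while the circRNAs of Khdc4 and 2610307P16Rik had none in the 6 libraries there.

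With a minimum of 1 read per library, B16F10 alone of its lineage held 2 members. These were 2.06% of the 97 with reads, beside 98 (1.14%) of the circRNAs of other single hosts. A count of 2 lies near that background and is no result about the members. One of the 2 members was the ring of Tmem131l described above. The other was from the lncRNA gene E230016M11Rik, exons 3 to 6 (chr6:67064613-67078417, plus strand, 535 bases), with 2, 1 and 4 reads in B16F10 and 0 in the 3 Melan-a libraries, and it is not listed in the mammary table. Its join is shown because it is the only member with reads in all 3 libraries of a tumour line and in none of the other libraries whose table lists it.
E230016M11Rik, exons 3 to 6: atccagaagttcaagGTATCAGTTACTGCA
In 4T1 the same minimum gave 1 member, exons 2 to 6 of 1810030O07Rik on the X chromosome (chrX:12657862-12673160), with 1, 3 and 3 reads, 0 in Eph4-ev and 1 in B16F10 replicate 2. This 1 member is 1.08% of the 93 with reads, beside 93 (1.01%) of the 9239 others, so the count lies near the background. The ring of Lrmda (1700112E06Rik), a gene named for melanocyte differentiation, had 1, 6 and 2 reads in Eph4-ev and 0 in the other 9 libraries. The 17 reads of the longer Tarbp1 (Gm17296) ring in 4T1 all came from replicate 3, and 1 further read was in Melan-a replicate 1. These members were picked after their values were seen.

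The ends of the rings were set against annotated exons. Both ends of the ring matched exon ends of a single GENCODE transcript for 122 of the 137 members with reads (89.1%), beside 98.1% of other single-host circRNAs. Among the 15 members of noncoding hosts with reads the number was 8 (53.3%), beside 93.4% of the 122 of protein-coding hosts. Of the 7 noncoding ones that did not match, 5 belong to hosts with no GENCODE entry (Gm30188, Gm32262, Gm34911, Gm36876 and Gm38580) and 2 to 2610307P16Rik, so the 53.3% says little about where these rings join. For the 2 circRNAs of 2610307P16Rik that share position 28505706 no transcript matched, and no sequence is given. The rings that matched had a median exonic length of 496.5 bases, beside 482 for the others, and a median of 3 exons in both groups. Rings opening with exon 2 made up 23.8% of members and 32.1% of the others, and rings of a single exon 7.38% and 4.27%.

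Because the series concerns encoded peptides, each matched ring was read for the longest frame that starts with ATG and crosses the join, over up to 3 turns of the ring. Such a frame was present in 114 of 122 members (93.4%) and in 95.4% of the others. The median lengths over all matched rings were 228 and 230 codons. A ring without a frame counts as 0 there, and a frame without a stop is counted over 3 turns. In the 8 matched rings of noncoding hosts the median, taken the same way, was 37 codons. The called ring of 2610307P16Rik has a frame of 32 codons, that of Gm29904 33 and that of E230016M11Rik 51, while the ring of exons 4 to 6 of 2610307P16Rik has none. No stop codon was met in 3 turns for 31 members (25.4%) and 31.8% of the others. An example is the 261-base ring of 1700109H08Rik. The annotated start codon of the host lies in 14 members (11.5%) and in 15.3% of the others, and the largest such frame among the abundant members, 1503 codons, is that of 2900026A02Rik. A frame is a property of the sequence, and no translation was measured in these libraries.

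Sequence shared with other genes was looked for in 131 rings, as words of 31 bases that occur in a transcript of another gene. Any such word was found in 11 rings, and in 4 over 20% of the words were shared. The most abundant of the 4 is exons 2 to 4 of 2610021A01Rik (chr7:41611676-41613251), with 21.4%. These words may lie anywhere in the ring, and its join was not found in an annotated linear transcript. Whether the shared sequence affects its junction reads was not tested. The ring had 2, 7 and 1 reads in 4T1, against 7, 1 and 2 in Eph4-ev. Its log2 fold of 1.11 (SE 1.18, adjusted p = 0.584 by edgeR) turned negative without 4T1 replicate 2. The join of 1 ring, from Zfp64 (Gm38422), also occurs in an annotated linear transcript of Zfp64 itself, so its reads (7, 0 and 7 in Eph4-ev, 2 in B16F10 and 4 in Melan-a) cannot be assigned to a ring by the join. Overlapping and antisense genes could not be separated further, since the strand of the reads is not given in the sources used here.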

How the data were processed

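Junction reads of 12 libraries were analysed, 3 for each of 4 lines. Per the labels' protocols, RNA was treated with RNase R and circRNAs were detected by the authors with CIRI2 (on BWA-MEM) and CIRCexplorer2 (on TopHat and TopHat-Fusion). Per the submitters' processing notes the build is mm10, and BWA, TopHat, DESeq, DESeq2 and edgeR are named without a role. How the callers' reads were combined, filtered and annotated is not given in these sources. The deposited count columns hold raw junction reads, per the file headers. The deposited RPM columns are those counts scaled by the authors to a common total per library: RPM gave back whole reads (within 0.01) for 100% of values, equal to the counts, so the main test on counts is also the test on recovered reads, with 325 calls in the mammary table. RPM says nothing of circular RNA per cell.

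Members and lists were chosen with earlier results of these data known. Each table was fitted whole in edgeR 4.0.16 (R 4.3.3; TMM; filterByExpr with a minimum count of 5 and total of 10; quasi-likelihood test; called at Benjamini-Hochberg adjusted p under 0.05), after a check on simulated data. Host sums and the interaction of lineage and line were fitted likewise, and shares were compared by exact two-sided permutation over libraries. Alternatives were DESeq2 1.42.0, other scalings and filters, a replicate block, thinning to equal depth and leaving out each library. Intervals and floors of 3 reads (summed over a group) cover counting error only. Exons, rings and joins are from GENCODE M21 (GRCm38), and symbols and biotypes from RefSeq (GRCm38.p6). Named were, per table, the 8 members of highest mean RPM, those called, the 4 most abundant found only in each line, those in all 12 libraries, those with a called interaction, and the 5 hosts with most circRNAs. The remaining named members were chosen after their values were seen. Rows with several hosts were left out of all comparisons.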

Additional observations from a re-analysis of the deposited data

Results flagged for a closer look

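Junctions assigned to several hosts at once, among them a Gm or Rik gene, were used in no comparison, and they hold more reads than the members. In the mammary lines 38 such circRNAs had 811 reads in 4T1 and 1381 in Eph4-ev, beside 396 and 802 for the members. In the melanocyte lines 41 with reads had 287 in B16F10 and 385 in Melan-a, beside 234 and 266. The largest is listed under both Gm21992 and Rbm4, an RNA-binding protein gene, at chr19:4792398-4794009. It had 101, 92 and 234 reads in 4T1, 239, 266 and 257 in Eph4-ev, 23, 41 and 24 in B16F10 and 25, 34 and 34 in Melan-a. Next in the mammary lines was a junction of Gm42139 and Klhl8 (chr5:103885907-103886290) with 226 reads. To which host these reads belong was not tested.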

How the results depend on the processing

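Depth limited what could be seen: 10 of 93 members could be tested in the mammary and 1 of 97 in the melanocyte lines, where a minimum count of 10 left 0 members to test. Calls in the mammary lines moved in these cases: DESeq2 called 1 circRNA higher (D930016D06Rik), a minimum count of 10 left 0 hosts higher, and leaving out single libraries gave 0 to 1 circRNAs higher, 0 lower, 0 to 1 hosts higher and 0 to 1 hosts lower. The replicate block gave 0 circRNAs lower (2610307P16Rik adjusted p = 0.0993) and changed no other call of edgeR. Same-numbered libraries did not deviate together (correlations 0.03, -0.04 and 0.02 in the mammary and 0.07, -0.06 and 0.01 in the melanocyte lines), and not every library correlated best with its own number, so the numbers are not taken to pair the libraries. With Gm hosts only, the share of detected circRNAs in 4T1 minus Eph4-ev was -0.0221 percentage points (all members -0.129), and the share of reads in B16F10 minus Melan-a was -0.0143 (all members 0.111). Leaving out single libraries gave -0.0241 to 0.0496 and -0.152 to -0.0892 for shares of reads and of detected circRNAs in the mammary lines, and 0.0813 to 0.165 and 0.0246 to 0.263 in the melanocyte lines. At a minimum of 1 read the members found only in a line were 1 in 4T1, 9 in Eph4-ev and 2 in B16F10. As shares of the members with reads these are 1.08, 9.68 and 2.06%, beside 1.01, 5.76 and 1.14% of the others. At 5 reads 0 remained in Eph4-ev, beside 118 (1.28%) of the others. Thinned to equal depth the mean was 0.1 in 4T1 and 0.1 in Eph4-ev. Leaving out single libraries gave 0 to 1 in 4T1, 4 to 10 in Eph4-ev, 0 to 3 in B16F10 and 0 to 2 in Melan-a, since fewer libraries then need reads. For the thinned counts and those without single libraries no share of the others is given here, so they are no result about the members.

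Log2 folds that changed sign, none of them called, were those of E130308A19Rik (0.19; -0.087 with no filter, -0.30 with the replicate block, -0.97 to 0.67 without single libraries), D930015E06Rik (0.11 without Eph4-ev replicate 2, range -1.53 to 0.11) and 2900026A02Rik (0.11 without 4T1 replicate 2, range -0.73 to 0.11). That of 2610021A01Rik was -0.22 without 4T1 replicate 2 (range -0.22 to 2.27). In the melanocyte lines that of 2010111I01Rik chr13:63061035-63068285 was -0.25 without B16F10 replicate 1 and -0.27 without Melan-a replicate 2 (range -0.27 to 0.68). The difference between lineages was 1.20 for 2010111I01Rik chr13:63015026-63015963 without B16F10 replicate 2 (range -1.93 to 1.20) and -3.21 for 8030462N17Rik without Melan-a replicate 1 (range -3.21 to 3.01). Further sign changes of E130308A19Rik were -0.97 without 4T1 replicate 3, -0.030 without Eph4-ev replicate 1 and -0.057 without replicate 2. The causes were not tested.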
